A study of Mus musculus with 4 samples.

Results

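The genes described here are 10 genes of the circadian clock, centred on the REV-ERB receptors, measured in cultured mouse Kupffer cells given maresin 1 or vehicle. They were chosen by name, with earlier results of these data known, as Nr1d1, Nr1d2, Arntl, Clock, Per1, Per2, Cry1, Nfil3, Bhlhe40 and Dbp. A probe was assigned to a gene when its RefSeq accession resolved to that symbol. On the array, 19 of 56605 distinct probes belonged to these genes, and all 10 genes were among the 24055 genes tested. Of these 24055, 14489 had a RefSeq symbol, and each of the others was counted under the array's own name for its target. Kupffer cells are macrophages that reside in the liver, and here they had been isolated by collagenase perfusion and Percoll centrifugation from livers of male C57BL/6 mice that were 8 weeks old. The vehicle group (Veh) received ethanol and the maresin 1 group (MaR1) received 200 nM of the mediator, both for 24 h in RPMI medium that held 0.1% serum after plating in 10% serum, and each group comprised 2 one-colour arrays. Maresin 1 is a lipid that macrophages make from docosahexaenoic acid and that is known for its part in ending inflammation. No genetic change was involved in either group, and the labels name no pooling, no time of day and no second time point, so each value is a snapshot at the single time sampled.

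In the circadian clock, the transcription factors CLOCK and BMAL1 (the product of Arntl) pair on E-box elements and switch on the Per, Cry and Nr1d genes. PER and CRY proteins return to block CLOCK and BMAL1, and the nuclear receptors REV-ERB alpha and REV-ERB beta (Nr1d1 and Nr1d2) silence Arntl by competing with ROR receptors for ROR response elements. DBP activates and NFIL3 represses genes through the D-box, which couples the loop to its outputs. In macrophages REV-ERB receptors are also known to repress inflammatory genes.

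Promoter sequence was available for 8 of the 10 genes as windows of 300 bases, from 250 before to 50 after a RefSeq start in GRCm38.p6, 12 windows in all; Per2 and Bhlhe40 had no entry. Stretches from 6 genes are shown because they hold, or in the case of Nr1d1 do not hold, the elements through which the clock genes are known to control each other. Each reads 5′ to 3′ along the gene's strand, with a matched element in capitals. The first 3 are the 100 bases before the start of Nr1d1 (chr11:98775378-98775477, minus strand), Nr1d2 (chr14:18239107-18239206, minus strand) and Cry1 (chr10:85185055-85185154, minus strand). The others are 30-base sites of Arntl (chr7:113207528-113207557, plus strand, downstream of the start), Per1 (chr11:69098771-69098800 and chr11:69098914-69098943, plus strand) and Nfil3 (chr13:52981034-52981063, minus strand, across the start).
Nr1d1, no element matched: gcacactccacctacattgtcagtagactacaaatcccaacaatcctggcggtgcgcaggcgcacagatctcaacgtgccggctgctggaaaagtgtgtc
Nr1d2, AGGTCA core: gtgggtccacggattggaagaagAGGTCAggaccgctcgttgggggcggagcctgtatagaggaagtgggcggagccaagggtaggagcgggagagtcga
Cry1, E-box: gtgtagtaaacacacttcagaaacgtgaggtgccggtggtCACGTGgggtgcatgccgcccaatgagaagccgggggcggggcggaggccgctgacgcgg
Arntl, ROR response element: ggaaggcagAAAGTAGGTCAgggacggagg
Per1, E-box: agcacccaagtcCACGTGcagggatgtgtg
Per1, D-box: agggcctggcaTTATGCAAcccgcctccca
Nfil3, AGGTCA core on the opposite strand: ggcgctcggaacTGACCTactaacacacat

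Both strands were searched. The E-box was CACGTG, the D-box TTATGNAA, and AGGTCA is the core that REV-ERB and ROR receptors bind, which lies inside the longer ROR response element when both match. The full ROR response element was rare, in 0.384% of all 32851 windows, and among the clock genes only a window of Arntl held it. An E-box stood in windows of Per1 and Cry1 (7.15% of all windows), a D-box in a window of Per1 (3.38%), and AGGTCA in windows of Nr1d2, Arntl, Clock, Per1 and Nfil3 (16.3%). These are matches of letters in short windows, and no match says only that the letters are not in that window.

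Arrays of 1 group correlated at r = 0.998, and arrays of different groups at 0.989 to 0.991. Over all 4 arrays the 75th percentile of the processed signal lay between 847 and 988, with the MaR1 arrays at 946 and 847. Each array had 54.4% to 55.6% of its probes well above background. The arrays stood on 1 slide in order of group, so position and treatment cannot be told apart, and no label says whether the replicates were separate cultures or animals; p-values therefore cover only array-to-array spread, possibly technical. Kupffer cell markers were present: all 12 of 12 were measured. Of these, limma called Csf1r higher (0.29 ± 0.07, adjusted p = 0.0471) and Adgre1 (-0.67 ± 0.06, adjusted p = 0.00634) and Id3 (-0.59 ± 0.07, adjusted p = 0.0128) lower, and the other 9, Clec4f (0.04 ± 0.07) and Timd4 (-0.09 ± 0.06) among them, were not called. Their summed level, in multiples of each array's 75th percentile, was 1117 to 1159 on Veh arrays and 1071 to 1078 on MaR1 arrays. Listed markers of other cell types were also measured, and their summed levels differed between the groups. The summed level of 9 measured dendritic cell markers of 10 was 47.5 to 50.9 on Veh and 74.2 to 74.8 on MaR1 arrays (Xcr1 was not well above background anywhere), that of 10 measured T and NK cell markers of 12 was 36.6 to 38.0 against 59.9 to 66.6 although 5 of them fell and 2 rose, that of 8 sinusoidal endothelial markers of 9 was 76.7 to 81.0 against 95.9 to 97.0, and that of 7 B cell markers of 8 was 21.6 to 22.3 against 23.2 to 24.0. The summed level of 9 hepatocyte markers of 10 was 24.9 to 26.6 on Veh and 20.8 to 21.4 on MaR1 arrays (Cps1 was not above background), that of 8 stellate cell markers of 10 was 41.8 to 41.9 against 38.5 to 39.5 (Lrat and Des likewise), and that of 8 neutrophil markers of 10 was 2.25 on both Veh arrays against 2.08 to 2.13. Such sums weigh bright markers most. Of the dendritic cell markers limma called 6 higher and 0 lower. Batf3 went from a log2 mean of 2.73 on Veh to 4.62 on MaR1 arrays, and Itgax from 0.54 to 2.93. Siglech, the brightest of them on Veh arrays, was lower with MaR1 (4.82 against 4.54), as was Flt3 (-0.28 ± 0.07), neither called. The 2 T and NK markers that rose were Cd8a and Gzma, the brightest of that list (log2 mean 4.23 on Veh and 5.60 on MaR1 arrays). The median difference of that list was -0.28. Among the neutrophil markers limma called only Mmp8 (-1.53 ± 0.08, adjusted p = 0.00298), and the median of that list was -0.02. The brightest B cell marker was Blnk (4.30 on Veh and 4.31 on MaR1 arrays), and the brightest stellate cell marker Acta2 (5.20 and 5.14). Neither was called, while 3 dimmer B cell markers were called higher and 3 dimmer stellate cell markers lower. Whether each of these cell types was present was not tested. Hepatocytes and leukocytes run the same clock genes, and the part of these cells in the differences below was not tested. In such bulk samples fewer cells of a type and less RNA per cell cannot be told apart.

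The comparison asks how the transcripts of the clock differ between cells given MaR1 and cells given vehicle. Transcripts of 4 clock genes rose with MaR1 and those of 3 fell. Nfil3 rose 2.23-fold, Nr1d1 1.83-fold, Bhlhe40 1.69-fold and Per1 1.28-fold, whereas Per2 was 1.36-fold, Arntl 1.26-fold and Dbp 1.20-fold lower. Nr1d2, Clock and Cry1 were not called at their brightest probe. Calls were made by limma's moderated test with Benjamini-Hochberg adjustment over all genes at a threshold of 0.05; by that rule 24% of all genes were called, 11.2% higher and 12.8% lower. The median difference of the 10 genes was 0.07 on the log2 scale and the median of its size without sign was 0.35, beside -0.02 and 0.18 over all genes tested. The MaR1 arrays lay above both Veh arrays for 5 of the 10 genes and below both for the other 5, beside 32.7% and 36.8% of all genes (69.6% in either direction). When any 1 of the 4 arrays was left out, the rises of Nfil3, Nr1d1 and Bhlhe40 remained called, and the calls of Per1, Per2, Arntl and Dbp were lost (adjusted p up to 0.135, 0.0968, 0.124 and 0.176), with directions kept. Levels are given below as log2 of the processed signal relative to the array's 75th percentile, and differences as MaR1 minus Veh on the same scale with the SE of the fit (2 arrays in each group). A probe's level depends on its own sequence, so levels are not set against each other between genes.

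**Figure D1:**
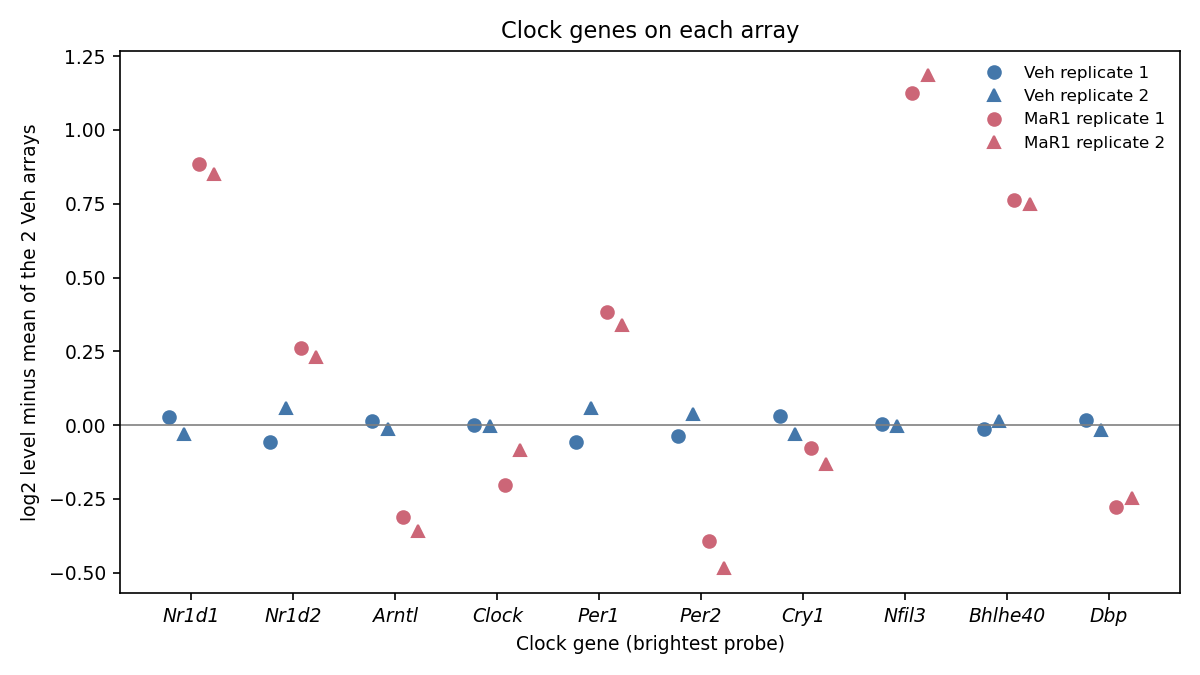
Level of each clock gene on each of the 4 arrays at its brightest probe, as log2 minus the mean of the 2 Veh arrays (vertical axis); circles are replicate 1 and triangles replicate 2. The MaR1 arrays lie above the Veh arrays for Nr1d1, Nr1d2, Per1, Nfil3 and Bhlhe40 and below them for Arntl, Clock, Per2, Cry1 and Dbp.

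Nr1d1, which encodes the repressor REV-ERB alpha, stood at -0.56 and -0.62 on the Veh arrays and at 0.30 and 0.26 on the MaR1 arrays. Both MaR1 arrays were high, and the gap between groups was many times the gap within either. The difference was 0.87 ± 0.06 (limma, adjusted p = 0.00406), and 4.91% of all genes had a larger difference in either direction. The gene had 1 probe. Its paralogue Nr1d2, which encodes REV-ERB beta and is known to share most of its targets, read 1.78 and 1.89 with vehicle and 2.10 and 2.07 with MaR1 at its brightest probe. The groups did not overlap, but the difference of 0.25 ± 0.07 was not called by limma (adjusted p = 0.0657, 95% interval 0.07 to 0.43 before adjustment). The other Nr1d2 probe gave 0.86 and 1.03 against 1.28 and 1.44, a difference of 0.42 ± 0.10 that was called when all 31110 kept probes were tested (adjusted p = 0.0442), beside 24% of those probes. With the mean of both probes the gene was called (0.33, limma adjusted p = 0.0446), so the call of Nr1d2 depends on which probe stands for it. The call of the second probe was itself lost in 6 of 12 alternatives: with quantile normalization (adjusted p = 0.0503), with no filter on dim probes (0.0629) and when any array was left out (0.085 to 0.161). Within each array the log2 ratio of Nr1d1 to Nr1d2, at the brightest probe of each, was higher with MaR1 by 0.62, or 1.54-fold. It lay 0.62 above the Veh mean on both MaR1 arrays against 0.09 and -0.09 on the Veh arrays. With the other Nr1d2 probe, whose difference was 0.42, the shift of the ratio would be smaller. An exact two-sided permutation test of such a ratio cannot go below p = 0.333 with 2 arrays against 2, and it gave p = 0.333 here and for the other 2 ratios described below.

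Arntl encodes BMAL1, the activator that REV-ERB receptors are known to repress, and its window holds the ROR response element shown above. Its level was -1.70 and -1.72 on the Veh arrays and -2.02 and -2.07 on the MaR1 arrays. The MaR1 arrays were low and the groups did not overlap. Arntl fell, with a difference of -0.34 ± 0.06 (limma, adjusted p = 0.024). The remaining 2 Arntl probes were dim, with processed signals of 32.5 to 52.2 and 26.2 to 54.8, and gave differences of -0.26 ± 0.11 (adjusted p = 0.155 over probes) and -0.36 ± 0.24 (adjusted p = 0.317), neither called by limma. All 3 probes had a difference below 0, but the mean of the 3 was not called (-0.32, limma adjusted p = 0.136). With normexp the dim probes gave -0.058 and -0.094, and without 1 array they ran from -0.38 to -0.15 and from -0.61 to -0.11. Clock encodes the partner of BMAL1 and read 0.37 on both Veh arrays and 0.17 and 0.28 on the MaR1 arrays. Its difference of -0.14 ± 0.07 was not called (limma, adjusted p = 0.192), with a 95% interval from -0.33 to 0.04. A second Clock probe gave -0.13 ± 0.06, and another, with signals of 5.25 to 12.6, was nowhere well above background and was not tested.

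Among the genes of the negative limb, the Per genes went opposite ways. Per1, whose protein helps to shut off CLOCK and BMAL1 and whose gene is also known to respond quickly to hormones and cyclic AMP, read 2.89 and 3.01 with vehicle and 3.33 and 3.29 with MaR1. Both MaR1 arrays were above both Veh arrays, and Per1 rose by 0.36 ± 0.07 (limma, adjusted p = 0.031). Per2 encodes a partner of PER1 in the same repressor complex and read 1.51 and 1.58 against 1.15 and 1.06. Here the MaR1 arrays were low, and Per2 fell by 0.44 on the log2 scale (-0.44 ± 0.07, limma, adjusted p = 0.0195). Its other probe was dim, with signals of 17.8 to 33.8, overlapped between the groups and gave 0.16 ± 0.29 (adjusted p = 0.707 over probes). That probe was not well above background on Veh replicate 2, so it passed the filter only through the MaR1 arrays. A call of it as higher is bound up with that filter. The mean of both Per2 probes was -0.14 and not called (limma, adjusted p = 0.557), so the fall of Per2 rests on its bright probe. With normexp the probes were called in opposite directions, the dim one higher (0.25, limma adjusted p = 0.0187 over probes) and the bright one lower (-0.45, adjusted p = 0.00138), and likewise with normexp and quantile normalization together (0.19 and -0.47, adjusted p = 0.0441 and 0.000801). The log2 ratio of Per1 to Per2, taken at the bright Per2 probe, was higher with MaR1 by 0.80, or 1.74-fold. It lay 0.78 and 0.82 above the Veh mean on the MaR1 arrays.

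Cry1, which encodes the cryptochrome that holds CLOCK and BMAL1 inactive, had the smallest difference of the 10 genes. It read -2.44 and -2.50 on the Veh arrays and -2.55 and -2.60 on the MaR1 arrays. The groups lay side by side without overlap, but the difference of -0.10 ± 0.06 was not called (limma, adjusted p = 0.267), with a 95% interval from -0.27 to 0.06. The second Cry1 probe overlapped between the groups and gave -0.05 ± 0.11, a difference that turned positive with quantile normalization, with normexp and in the authors' value table.

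Bhlhe40 encodes DEC1, a repressor that competes with CLOCK and BMAL1 for E-boxes and is induced by many signals outside the clock. Its level was 1.25 and 1.28 with vehicle and 2.03 and 2.01 with MaR1. The groups were far apart relative to the spread within them, and Bhlhe40 rose by 0.76 ± 0.05 (limma, adjusted p = 0.00463), a difference exceeded in size by 6.63% of all genes. Like Nr1d1 and Per1, it had a single probe.

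The D-box factors moved in opposite directions. Nfil3 encodes E4BP4, the D-box repressor that is also known for its role in lymphocyte and myeloid cell differentiation. It stood at 3.64 on both Veh arrays and at 4.76 and 4.83 on the MaR1 arrays. No other clock gene among the 10 differed as much: Nfil3 rose by 1.15 ± 0.06 (limma, adjusted p = 0.00276), and only 2.57% of all genes differed more. The second Nfil3 probe gave 1.21 ± 0.06, with 3.51 and 3.57 against 4.72 and 4.77. Dbp, which encodes the D-box activator and is known as a direct output of CLOCK and BMAL1, read 4.28 and 4.25 against 3.99 and 4.02. The MaR1 arrays were low without overlap, and Dbp fell, by a difference of -0.26 ± 0.06 (limma, adjusted p = 0.039). Its second probe gave -0.30 ± 0.07 (adjusted p = 0.049 over probes), also called. Within arrays the log2 ratio of Nfil3 to Dbp was higher with MaR1 by 1.42, or 2.67-fold, and lay 1.40 and 1.43 above the Veh mean on the MaR1 arrays.

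**Figure D2:**
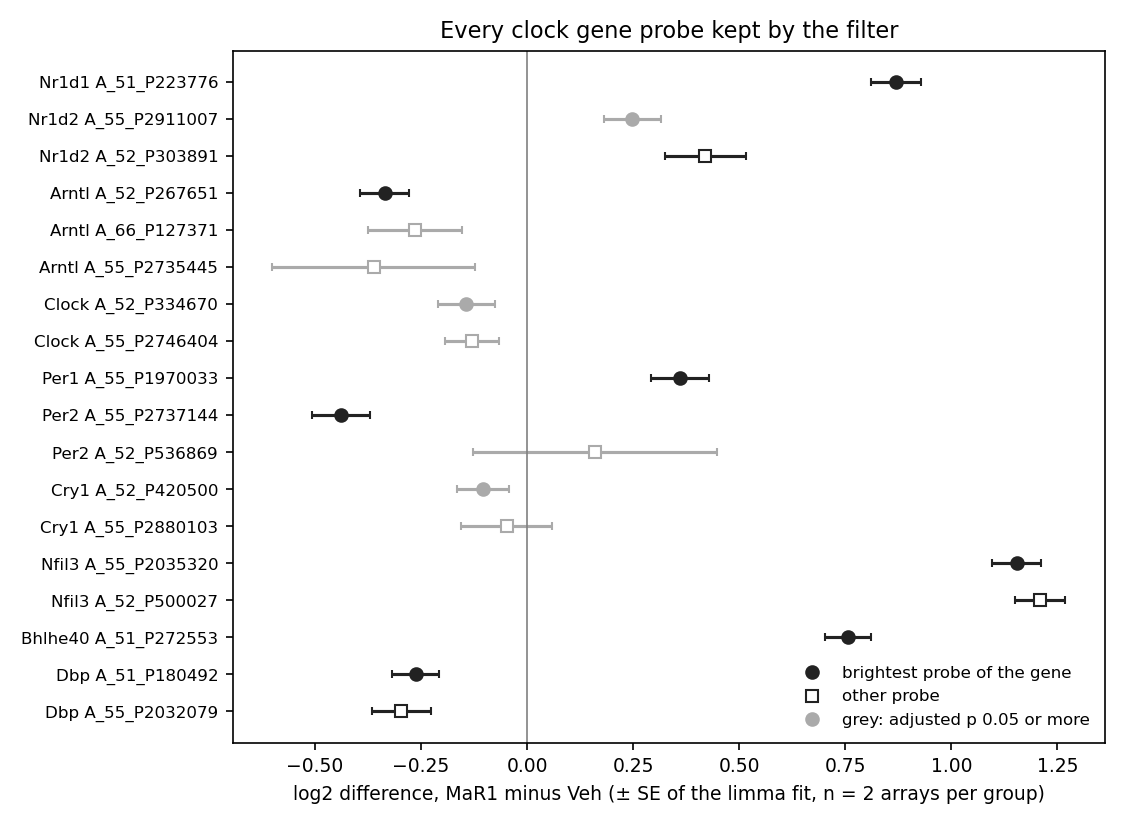
Difference between MaR1 and Veh (log2, horizontal axis, error bars are the SE from limma, 2 arrays in each group) for each of the 18 clock gene probes that passed the filter. Filled circles are the brightest probe of a gene, open squares its other probes, and grey marks probes with an adjusted p of 0.05 or more; 6 probes were called higher and 4 lower, and the dim probes of Arntl and Per2 have the widest errors.

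Of the 18 kept clock probes 6 were called higher and 4 lower, beside 11.6% and 12.4% of all kept probes. For 7 of them the MaR1 arrays lay above both Veh arrays and for 8 below both, beside 33.2% and 36.4% of all kept probes (69.5% in either direction). Both probes of Nfil3 and both of Dbp were called in 1 direction. As processed here, no gene of the 10 had a probe called higher and another called lower. With normexp, alone or with quantile normalization, Per2 did, through the dim probe that passed the filter only by its MaR1 arrays.

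Rora, the activator that REV-ERB receptors oppose, rose together with Nr1d1. It stood at 1.42 and 1.45 with vehicle and at 2.58 and 2.75 with MaR1, a difference of 1.23 ± 0.08 (limma, adjusted p = 0.0038), and its second probe gave 1.17 ± 0.09. Among 15 further core clock and output genes, 10 were measured, of which 3 rose, 2 fell and 5 were not called, beside 11.2% of all genes called higher and 12.8% called lower. Besides Rora, the genes that rose were Timeless (0.62 ± 0.07, adjusted p = 0.01), whose product is best known for supporting DNA replication forks, and Wee1 (0.50 ± 0.06, adjusted p = 0.013), a cell cycle kinase gene known to be driven by the clock. Per3 fell (-0.69 ± 0.10, limma, adjusted p = 0.0174), as did Usp2, a deubiquitinase gene with clock-driven rhythms (-0.96 ± 0.14, adjusted p = 0.018); Usp2, and Tef, Cry2 and Mmp9 below, fall outside the rule for named genes and were named after their values were seen. Under background correction by normexp the difference of Usp2 shrank to -0.36 and stayed called. Without each array in turn Rora alone of these 5 remained called in every case, with adjusted p up to 0.064 (Timeless), 0.0728 (Wee1), 0.0824 (Per3) and 0.0791 (Usp2). The call of Timeless remained only without Veh replicate 2, that of Per3 only without MaR1 replicate 1, that of Usp2 only without Veh replicate 2, and that of Wee1 in no case. The PAR bZIP gene Tef, a relative of Dbp, gave 0.00 ± 0.08 and Cry2 0.06 ± 0.07, neither called.

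The next lists hold genes for proteins that modify, degrade or partner the clock proteins. Of 18 measured genes of 19 for clock kinases, phosphatases and ubiquitin ligases, 1 was called, beside 24% of all genes. This was Prkaa2, which encodes a catalytic subunit of AMP-activated protein kinase (0.52 ± 0.11, limma, adjusted p = 0.0423; 0.34 with normexp). Its call was lost with the mean of its probes, with no filter on dim probes and when any array was left out, where adjusted p reached 0.163. Siah2, a ubiquitin ligase gene (0.25 ± 0.06, adjusted p = 0.0519), Gsk3b (-0.21 ± 0.06, adjusted p = 0.0616) and the casein kinase gene Csnk2a2 (0.17 ± 0.06, adjusted p = 0.0999) were not called by limma; Siah2 and Gsk3b passed under some alternatives, both of them with normexp, Csnk2a2 passed with a variance trend (adjusted p = 0.0219), and the dimmest probe of Gsk3b was called lower (-0.41 ± 0.08). Of the 6 genes of the corepressor complex that REV-ERB recruits, limma called 0, with 2 at an unadjusted p under 0.05 (Tbl1x and Gps2). Under alternatives Tbl1x was called higher with normexp, with the stricter filter and with a variance trend. Gps2 was called lower with normexp (adjusted p = 0.028), with normexp and quantile normalization together (0.0147) and with a variance trend (0.00658), and Hdac3 higher with a variance trend (0.0443). The differences were 0.24 ± 0.06 for Tbl1x (adjusted p = 0.0544), -0.24 ± 0.08 for Gps2, 0.18 ± 0.07 for the deacetylase gene Hdac3 and -0.13 ± 0.05 for Ncor1 (adjusted p = 0.16), the corepressor that docks on REV-ERB. One of the 5 Ncor1 probes was called lower (-0.34 ± 0.05, adjusted p = 0.02 over probes). Of 13 genes for PER and CRY partner proteins, 2 rose and 1 fell, a share close to the 24% of all genes that were called: the histone methyltransferase gene Suv39h1 (0.39 ± 0.06), the deacetylase gene Sirt1 (0.45 ± 0.11, adjusted p = 0.0487) and the helicase gene Dhx9 (-0.24 ± 0.06, adjusted p = 0.0474). Nono, an RNA-binding partner of PER, gave 0.20 ± 0.07 and was not called (limma, adjusted p = 0.1), though it passed with normexp (0.0483) and with a variance trend (0.00693); with quantile normalization its difference was 0.096. Leaving out any array ended all 3 calls, with adjusted p reaching 0.102, 0.181 and 0.186. Sirt1 was also not called with quantile normalization, nor Dhx9 with quantile normalization, with normexp, with both or in the authors' value table. With no filter on dim probes Suv39h1, Sirt1 and Dhx9 all lost the call (limma adjusted p = 0.0579, 0.0703 and 0.0594). The second probe of Suv39h1 was not called (0.27 ± 0.07, limma adjusted p = 0.0546 over probes), and that of Sirt1 was called higher (0.44 ± 0.08, adjusted p = 0.0291).

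**Figure D3:**
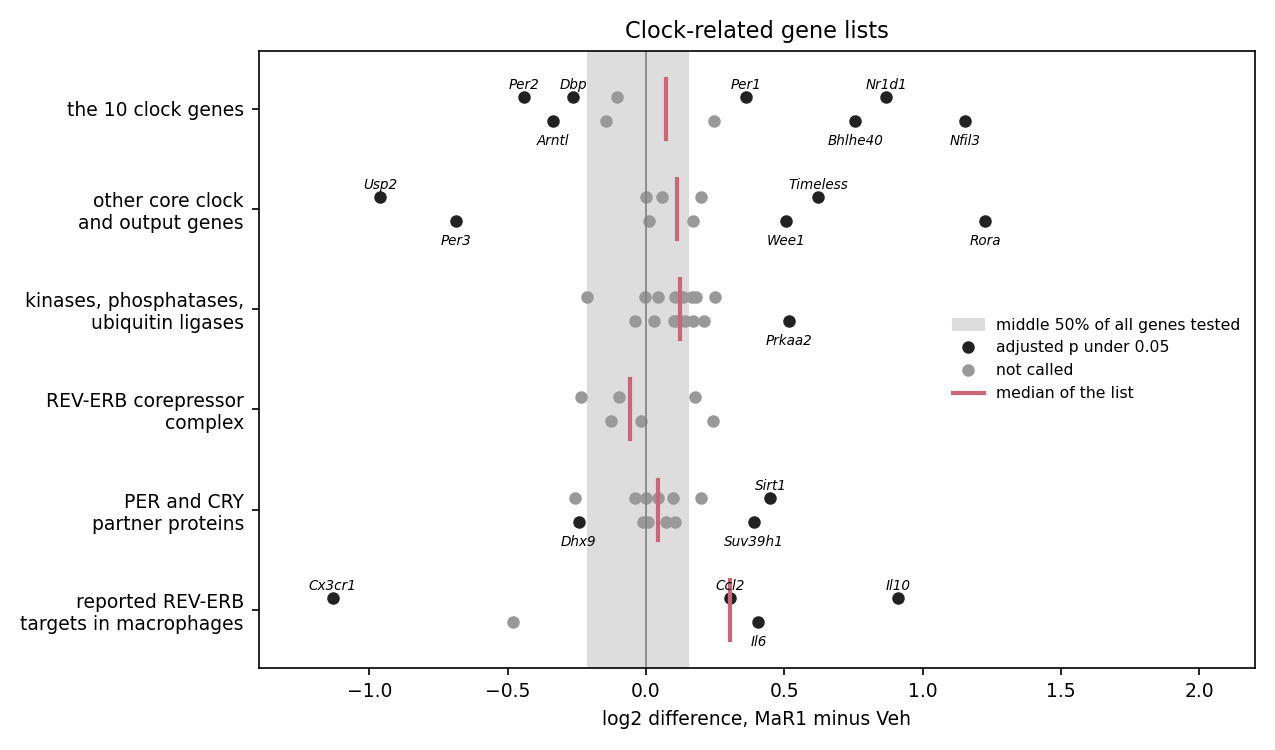
Difference between MaR1 and Veh (log2, horizontal axis) of each measured gene in 6 clock-related lists; black points have an adjusted p under 0.05 and are named, grey points were not called, red bars are list medians, and the grey band holds the middle 50% of all 24055 genes. Called genes lie on both sides of 0 in every list except the kinases, phosphatases and ubiquitin ligases, where only Prkaa2 is black, and the corepressor complex. No gene of the corepressor complex is black.

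Of 5 genes reported as repressed by REV-ERB receptors in macrophages, 3 rose, 1 fell and 1 was not called, beside 11.2% of all genes higher and 12.8% lower. Their median difference was 0.30, beside -0.02 over all genes. Cx3cr1, the fractalkine receptor gene, stood at -2.79 and -2.78 with vehicle and at -3.78 and -4.05 with MaR1, and fell by 1.13 on the log2 scale (-1.13 ± 0.11, limma, adjusted p = 0.0073; -0.48 with normexp, still called). Mmp9, which encodes a matrix-degrading protease, read -1.52 and -1.66 against -1.92 and -2.22, a difference of -0.48 ± 0.13 that was not called (limma, adjusted p = 0.0601). The cytokine gene Il10 rose by 0.91 ± 0.06 (adjusted p = 0.00425) and remained called without each array. Il6 (0.41 ± 0.06) and the chemokine gene Ccl2 (0.30 ± 0.06, adjusted p = 0.0395) rose in the fit of all arrays, and leaving out any array ended both calls, with adjusted p reaching 0.103 and 0.168. With quantile normalization Ccl2 gave 0.19 and was not called. As given above, summed markers of dendritic cells, T and NK cells, endothelial cells and B cells were higher on the same MaR1 arrays. Those of hepatocytes, stellate cells and neutrophils were lower. Single markers did not all follow their sum: 5 T and NK markers were called lower and 2 higher, and Mmp8 alone was called among the neutrophil markers. The dendritic cell markers Siglech and Flt3 were lower without a call. The part of these cells in the differences of the 5 genes was not tested.

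By Euclidean distance over the 4 arrays, of log2 values minus the Veh mean, the 5 of 13512 named genes with the pattern most like that of Nr1d1 were Ms4a8a, Thrb, Nsf, Ly6d and Lag3, at distances of 0.05 to 0.07. Their differences ran from 0.84 to 0.89, a range that follows from picking genes by closeness to Nr1d1. 

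The direction of each of the 10 genes was the same under all 13 other ways of processing the data, and 5 genes (Nr1d1, Clock, Cry1, Nfil3 and Bhlhe40) also stayed on the same side of the threshold in each. For the other 5 the call changed in at least 1.

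**Figure D4:**
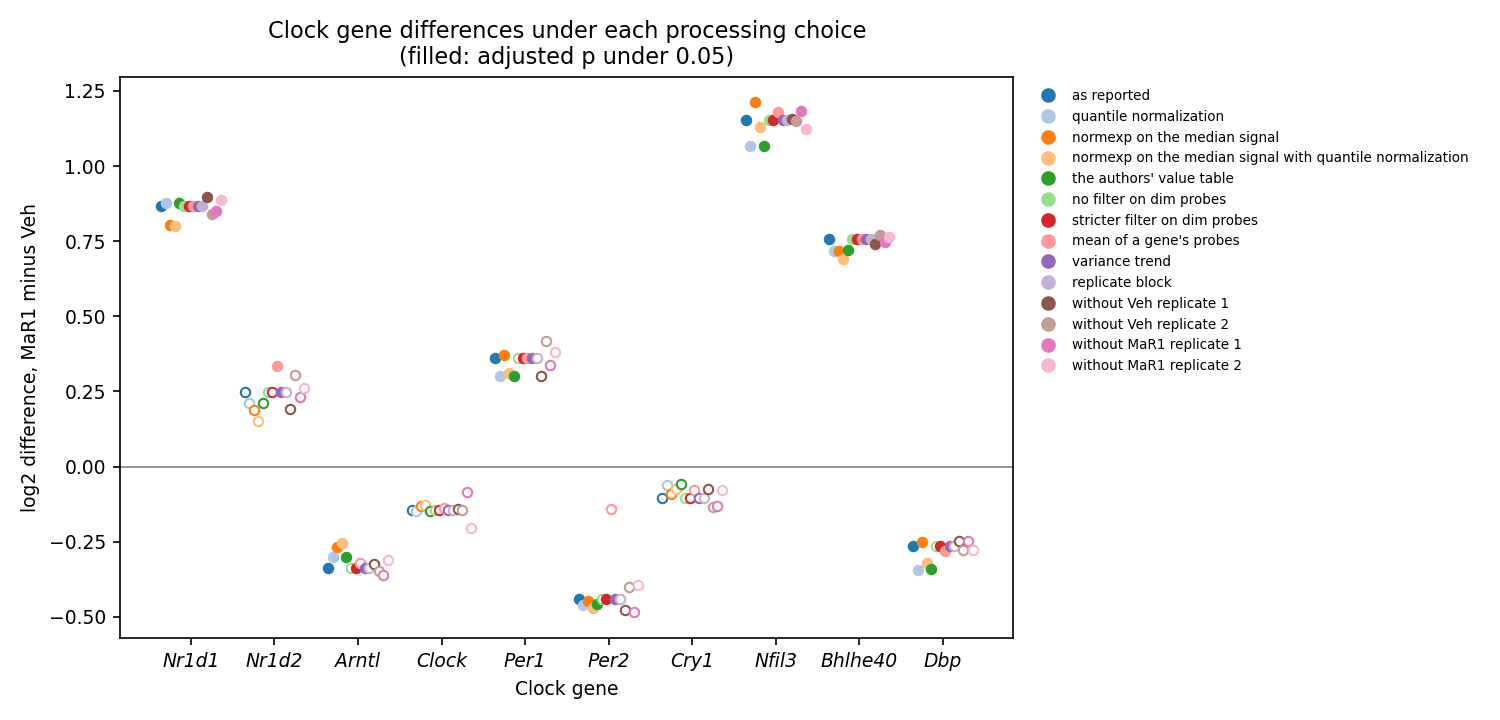
Difference between MaR1 and Veh (log2, vertical axis) of the 10 clock genes as reported and under the 13 other processing choices, by colour; filled circles have an adjusted p under 0.05. Nr1d1, Nfil3 and Bhlhe40 are filled throughout, while Arntl, Per1, Per2 and Dbp turn open when an array is left out, with the replicate block and with no filter on dim probes.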

How the data were processed

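Scanner output of the 4 one-colour arrays gave linear intensity values, which the authors extracted with Agilent Feature Extraction 11.0.1.1 per the file headers; the software subtracts background and detrends within an array, with no scaling between arrays. A deposited value table holds log2 values; from the values, each column follows the same array's log2 processed signal (r of at least 0.999996), all columns share 1 distribution as after quantile normalization, and medians are 9.07; it served as an alternative. No column of another sample was used.

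Here log2 processed signals were centred on the 75th percentile of the non-control spots of that array, spots marked as outliers were left out, and a probe was kept where either group had it well above background on both of its arrays (31128, of which 31110 had a value on every array). RefSeq accessions, looked up in a GRCm38.p6 table, named 58.3% of probes. A probe without a symbol was grouped under the array's own name for its target, which then counted as a gene. The brightest kept probe stood for a gene. Differences were tested with limma 3.58.1 in R 4.3.3 (two-sided; intervals on 4.27 total degrees of freedom). The fit was tested on simulated data. The number of arrays limits the precision, and several dim probes had wider errors. Figures were drawn with matplotlib 3.10.9.

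The members, lists and named-gene rule (up to 4 genes of a list by smallest p, plus Rora) were chosen with earlier results of these data known. Normexp (offset 50) was run on the median spot signal. Arrays of equal replicate number shared no visible deviation: deviations from the group means correlated at -0.03. That value cannot exclude a pairing, and the labels do not state one, so the replicate block served as an alternative. Genes of a list without a named probe or a kept probe were not tested, and 1 item is not reported here.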

Additional observations from a re-analysis of the deposited data

How the results depend on the processing

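Of 130 values of the 10 clock genes under 13 alternatives, 102 kept direction and side of the threshold, 26 lost and 2 gained the call (Nr1d2, with the mean of its probes and with a variance trend), and 0 changed sign. In place of 3 genes called lower by limma, 0 were called with no filter on dim probes (3 at an unadjusted p under 0.05), 0 with the replicate block (3 at that p), and 1, Dbp, with the mean of a gene's probes; the 4 clock probes called lower became 0 and 1 under the first 2. Leaving out 1 array gave 0 lower genes and 0 lower probes in every case (2 to 3 genes at an unadjusted p under 0.05), on fewer samples; higher genes numbered 3 in each case. Without the block the labels' replicate numbers enter no fit; with the replicate block the adjusted p of Per1, Per2, Arntl and Dbp was 0.0681, 0.0515, 0.0572 and 0.0877, and the calls of Dhx9, Il6 and Ccl2 were also lost. Over all genes, 2699 higher and 3069 lower became 1087 and 972 with no filter, 4525 and 4670 with a variance trend, 1766 and 1926 with the replicate block, and 884 to 1211 and 668 to 1171 without 1 array; the cause was not tested. With no filter the median of all genes moved from -0.02 to -0.14, over 45604 genes. The dim second probe of Cry1 turned to 0.015 with quantile normalization, 0.038 with normexp, 0.032 with both and 0.026 in the authors' value table, and ran from -0.18 to 0.085 without 1 array (positive without MaR1 replicate 2). The dim probe of Per2, which passed the filter only through the MaR1 arrays, ran from -0.22 (without MaR1 replicate 1) to 0.54. It was called higher with normexp, alone and with quantile normalization. Thra, not called, turned to -0.040 with normexp and quantile normalization together. Dim probes limit what can be said of Arntl, Per2 and Cry1.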

Other observations

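Thra, a thyroid hormone receptor gene whose RefSeq span overlaps that of Nr1d1 by 1075 bases and which is transcribed from the opposite strand, was named after its value was seen. It read 2.77 and 2.84 on the Veh arrays and 2.87 on both MaR1 arrays. Its difference of 0.06 ± 0.06 was not called (limma, adjusted p = 0.469), beside 0.87 ± 0.06 for Nr1d1.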
